A study of Arabidopsis thaliana with 3 samples.

Results

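Oligoadenylated tails that ended in 1, 2 or 3 added uridines (U) were examined in flowers of Arabidopsis thaliana, to ask on which mRNAs the added stretch went past its first U. A tail was included if it had 10 to 25 As followed by 1 to 3 Us, and tails with 2 or 3 Us were compared with tails of 1 U. There were 33183 such reads among the 442916 of the series, and they belonged to 8749 of its 16577 genes. Values per mRNA are given for the 177 mRNAs with at least 20 such tails over all libraries. These members were chosen by the length of the poly(A) stretch, the kind and number of added nucleotides and the number of tails per mRNA. The division between 1 U and 2 or 3 Us did not enter the selection of an mRNA.

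The series measured tails by TAIL-seq, in which the 3′ ends of RNA receive an adapter and a read pair gives both the identity of the mRNA and its tail. All samples were flowers (flower buds, per the methods of the study) of wild-type plants, WT (Col-0), grown on soil in a light and dark cycle, in 3 biological replicates with no other genotype or treatment, and the study used them to examine mRNA uridylation. Replicates 1, 2 and 3 held 222681, 113458 and 106777 reads, of which 13361, 9406 and 10416 had the tails considered here. The read names place replicate 1 in a different sequencing run from replicates 2 and 3, so replicate 1 and its run cannot be told apart. All 5 flower organ identity genes inspected (AP1, AP3, PI, AG and SEP3) were detected, with 8 to 211 reads each over the libraries. The samples were bulk tissue, so fewer cells of a type and less RNA per cell cannot be told apart.

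In Arabidopsis most uridines on mRNA tails are added by URT1, a terminal uridylyltransferase that prefers tails already shortened by deadenylases. The enzyme is distributive, meaning that it tends to let go of the RNA after adding a nucleotide, so that a second U usually takes another encounter or a longer stay. In fission yeast and human cells, added Us are proposed to draw decapping and decay factors to the mRNA. Per the study, a causal link of uridylation to decay remains to be shown in Arabidopsis. Added Us can also give the poly(A) binding protein a new footing at the end of a short tail. How far the stretch of Us extends is therefore a property of a tail that is separate from whether it was uridylated at all.

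The most frequent forms of the tail are shown for some mRNAs picked to illustrate the contrast between mRNAs that is described below. They are given in RNA letters from 5′ to 3′, with As in lower case and the added Us in capitals, first for 3 mRNAs on which 2 Us were common and then for 3 on which they were rare or absent.
AT1G24160: aaaaaaaaaaaaaaaaUU
AT4G28240: aaaaaaaaaaaaaaaaUU
BAM3: aaaaaaaaaaaaUU
RCI2A: aaaaaaaaaaaaaaaU
HMGB3: aaaaaaaaaaaaaaaaU
AT4G31985: aaaaaaaaaaaaaaaaaaaU
The form shown made up 52 of the 519 tails of AT1G24160, 6 of the 56 of AT4G28240 and 27 of the 289 of BAM3. It made up 16 of the 134 tails of RCI2A, where a form with 17 As and 1 U was equally frequent, 4 of the 21 of HMGB3 and 4 of the 20 of AT4G31985. No single form made up more than 20% of the tails of any of these mRNAs. On some other mRNAs with many tails of 2 or 3 Us, the most frequent form had 1 U. It made up 5 of the 42 tails of AT1G10640 and 13 of the 80 of LOS1. On CRD1, forms of 15 and of 16 As with 1 U each made up 92 of 1954 tails. AT1G24160, AT4G28240, BAM3 and RCI2A were also followed by a second assay of the study. Whether all their reads are TAIL-seq reads was not tested, as described below.

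Among all tails of 10 to 25 As with 1 to 3 Us, those with 2 or 3 Us made up 32.2%, 35.9% and 36.3% in replicates 1, 2 and 3. The Wilson 95% intervals were 31.4 to 33.0%, 35.0 to 36.9% and 35.4 to 37.2%. The mean was 34.8% ± 2.26 (SD, n = 3). These intervals, like all others given, cover counting error only. Tails with 2 Us accounted for 28.6% ± 1.02 and tails with 3 Us for 6.16% ± 1.29 (SD, n = 3 for both). A chi-square test over the 3 libraries gave p = 1.64e-12, so the spread was larger than counting error.

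This difference moved with a small set of mRNAs. The study followed 22 mRNAs of differing uridylation by another assay, 3′RACE-seq. These mRNAs and HAM1, which the study names LOM1 and which is counted with them here as the 3′RACE-seq set, had 128 of the tails in replicate 1, 1869 in replicate 2 and 1619 in replicate 3. On them the share with 2 or 3 Us was 35.2%, 55.1% and 55.0%, whereas on all other mRNAs it was 32.2%, 31.2% and 32.8% in replicates 1, 2 and 3. Without the 23 mRNAs the mean was 32.0% ± 0.839 (SD, n = 3). The chi-square test then gave p = 0.0741. Why the tails of the 23 mRNAs were spread so unevenly was not tested. In particular, whether reads of the targeted 3′RACE-seq assay entered the libraries of replicates 2 and 3 was not tested, so the values of these mRNAs may not describe TAIL-seq reads alone. The other mRNAs served as the comparison for every mRNA named below.

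Added Gs and Cs gave a background for a further added nucleotide. At 10 to 25 As, 2 Gs were found on 3 of 335, 1 of 285 and 2 of 278 tails that ended in G in replicates 1, 2 and 3. For C the numbers were 1 of 376, 1 of 395 and 3 of 266. The highest of these 6 shares was 1.13% (Wilson 95% interval 0.384 to 3.26%), far under the lowest share for U. None of these tails carried more than 2 Gs or 2 Cs.

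On the mRNAs outside the 3′RACE-seq set, the first extension was more frequent than the later ones. Of uridylated tails of any number of Us, 32.6% ± 0.939 had more than 1 U, and of those with at least 2 Us only 16.0% ± 0.630 had more than 2. Of tails with at least 3 Us, 14.3% ± 2.51 had more than 3 (SD, n = 3 for each). Tails with more than 3 Us, which are outside the comparison, made up 0.847%, 0.554% and 0.845% of uridylated tails of 10 to 25 As in replicates 1, 2 and 3 on these mRNAs, and 0.853%, 2.81% and 2.54% when all mRNAs were included.

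The share with 2 or 3 Us depended on the length of the poly(A) stretch. It was 52.5% ± 2.04 at 10 As, 34.4% ± 1.62 at 15 As, 26.5% ± 6.07 at 20 As and 13.4% ± 3.33 at 25 As (SD, n = 3 for each). Between neighbouring lengths the share was lower at the longer one in 14 of 15 steps in replicate 1, in 10 in replicate 2 and in 13 in replicate 3. In a logistic regression each further A multiplied the odds of 2 or 3 Us by 0.879, 0.901 and 0.880 in replicates 1, 2 and 3. The mean slope was -0.120 ± 0.0139 in natural log odds per A (SD, n = 3). All 3 slopes were negative, and an exact two-sided sign-flip test over the libraries gave p = 0.25, the smallest value that 3 libraries allow. The slope was also negative in every library when each mRNA was compared only with itself, with a mean of -0.138 ± 0.0346, so that the dependence was present within single mRNAs. With the total tail length, As plus Us, in place of the As, the mean slope was smaller in size, -0.0463 ± 0.0104 (SD, n = 3). The total includes the added Us, which raises it on tails with 2 or 3 Us, so this slope does not measure a weaker dependence.

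**Figure D1:**
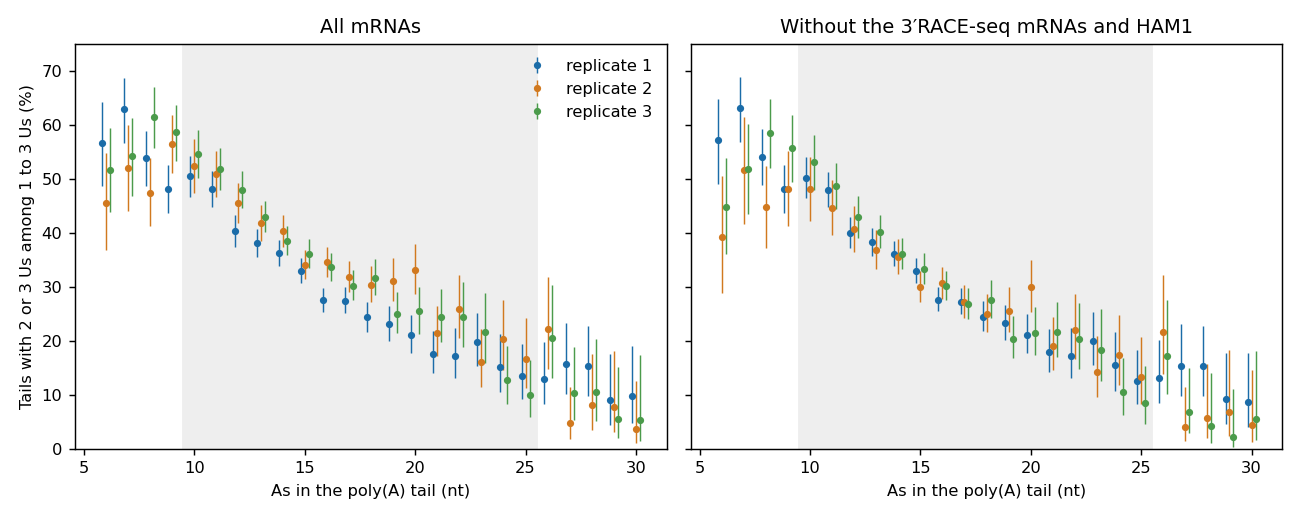
Share of tails with 2 or 3 Us among tails with 1 to 3 Us (%, vertical axis) against the number of As (nt, horizontal axis), for all mRNAs (left) and without the 3′RACE-seq mRNAs and HAM1 (right). Points are libraries with Wilson 95% intervals and the shaded band marks 10 to 25 As. Within the band the mean over all mRNAs was 52.5% at 10 As and 13.4% at 25 As, and below 10 As the points spread between libraries.

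The limits of 10 and 25 As did not coincide with a break. At 9 As, just outside the lower limit, the share was 48.1%, 56.6% and 58.6% in replicates 1, 2 and 3, and at 10 As it was 50.5%, 52.4% and 54.6%. At 25 As it was 13.5%, 16.7% and 10%, and at 26 As, just outside the upper limit, 13%, 22.2% and 20.5%. As classes, however, the 3 kinds of tail were far apart. The study calls tails under 10 As excessively deadenylated, but those recorded here had at least 6 As, so they are only a part of that class. The share was 54.3% ± 3.03 on these tails under 10 As, 34.8% ± 2.26 on tails of 10 to 25 As and 6.66% ± 0.414 on tails over 25 As (SD, n = 3 for each). Tails of 10 to 25 As were lower than the shorter ones by 21.6, 15.6 and 21.3 percentage points in replicates 1, 2 and 3 (two-sided Cochran-Mantel-Haenszel chi-square stratified by library, p = 2.94e-104). They were higher than the longer ones by 25.5, 29.7 and 29.2 points (the same chi-square, p = 4.07e-222). These tests count reads, and the shares of the classes did not overlap between any libraries.

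Single mRNAs spanned a wide range around these means. Among the 177 mRNAs the share ran from 0% to 71.1%, with a median of 24.6%, and it was above 50% on 14 of them. Each mRNA was compared with the pooled tails of the mRNAs outside the 3′RACE-seq set by a beta-binomial model. The model used 1 value for the spread between libraries, shared by all mRNAs, so a p-value does not measure the spread of its own mRNA. The p-values were adjusted over the 177 by the method of Benjamini and Hochberg. At an adjusted p under 0.05, 11 mRNAs (6.21%) were above the pooled tails and 21 (11.9%) were below them. Among the 164 tested mRNAs outside the 3′RACE-seq set, 6 were above and 20 below. The shares of 6.21% and 11.9% set beside the gene groups further on include the set. Of the 32 calls, 31 had the same direction in every library with at least 5 tails, and the exception was AT1G07940. These are the libraries that gave the calls, so the agreement is not an independent check. Some calls had only 1 such library, as AT1G10640 with 36, 3 and 3 tails in replicates 1, 2 and 3. At 20 tails, just inside the minimum, 13 mRNAs had shares of 0% to 50%, and at 19 tails, just outside it, 19 mRNAs had shares of 5.26% to 42.1%.

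**Figure D2:**
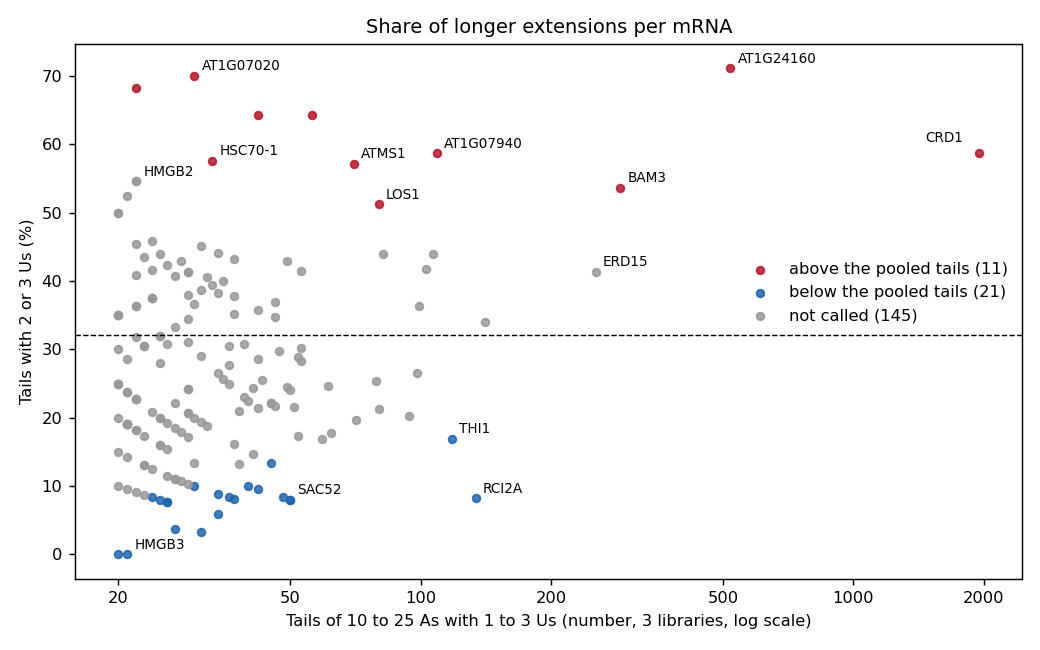
Share of tails with 2 or 3 Us (%, vertical axis) against the number of tails of 10 to 25 As with 1 to 3 Us (horizontal axis, log scale) for the 177 mRNAs. Colours give the call against the pooled tails of the mRNAs outside the 3′RACE-seq set, whose share of 32.1% is the dashed line. The 11 mRNAs above lay between 51.3% and 71.1%, and the 21 below lay between 0% and 16.9%.

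The highest share belonged to AT1G24160, annotated as triadin (chr1:8553313-8556750 in TAIR10.1). It had 2 or 3 Us on 209 of 280 tails (74.6%) in replicate 2 and on 159 of 238 (66.8%) in replicate 3, with 1 tail in replicate 1, which also had 2 or 3 Us. The odds were 5.14 times those of the pooled tails (95% interval 3.37 to 7.85, beta-binomial adjusted p = 1.36e-13). As a 3′RACE-seq target with nearly all of its tails in replicates 2 and 3, it is among the mRNAs whose reads may not all be TAIL-seq reads. The highest share outside the set was 70%, on AT1G07020. AT1G24160 was a 2-U mRNA rather than one with long stretches of U. Tails with 1, 2 and 3 Us numbered 150, 295 and 74, and of those with at least 2 Us only 23% had more than 2 (Wilson 95% interval 19 to 27.4%). Unlike the pooled tails, its share was not highest on the shortest tails. It was 63.4% of 131 tails at 10 to 13 As, 76.0% of 287 at 14 to 17 As and 67.3% of 101 at 18 to 25 As, against 43.0%, 31.4% and 21.9% on the mRNAs outside the 3′RACE-seq set.

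CRD1 (chr3:21076505-21078443), which encodes a subunit of the cyclase of chlorophyll synthesis, had the most tails of all members. It had 2 or 3 Us on 5 of 7 tails in replicate 1, on 614 of 1050 (58.5%) in replicate 2 and on 529 of 897 (59.0%) in replicate 3. Replicates 2 and 3 were nearly equal, and the odds were 3.07 times those of the pooled tails (95% interval 2.15 to 4.37, beta-binomial adjusted p = 7.25e-08). CRD1 is also a 3′RACE-seq target with nearly all of its tails in replicates 2 and 3, so the same doubt about the origin of its reads applies to its profile of Us. Its stretch of Us went on. Tails with 1, 2 and 3 Us numbered 806, 670 and 478, and a further 395 tails had more than 3 Us, up to 27. Of the CRD1 tails with at least 2 Us, 56.6% had more than 2 (Wilson 95% interval 54.1 to 59.0%), and of those with at least 3 Us, 45.2% had more than 3 (42.0 to 48.6%). The same steps were passed by 16.1% and 14.7% of tails of the mRNAs outside the set, and intervals of CRD1 and AT1G24160 for the step past 2 Us did not overlap. A difference between these mRNAs was not tested.

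Of the 23 mRNAs of the 3′RACE-seq set, 13 reached 20 tails, and besides AT1G24160 and CRD1 another 3 were above the pooled tails. BAM3, a receptor kinase of phloem development, had 2 or 3 Us on 78 of 141 tails (55.3%) in replicate 2 and on 77 of 148 (52.0%) in replicate 3, with no tail in replicate 1, so its fit rests on these libraries (odds ratio 2.44, beta-binomial adjusted p = 0.00124). AT4G28240, annotated as a wound-responsive protein, had them on 6 of 13 tails (46.2%), 13 of 22 (59.1%) and 17 of 21 (81.0%) in replicates 1, 2 and 3 (odds ratio 3.74, beta-binomial adjusted p = 7.85e-04, but 0.0960 without replicate 3). HAM1, a GRAS transcription factor of shoot meristems, had them on 1 of 1, 8 of 10 and 6 of 11 tails (odds ratio 4.56, beta-binomial adjusted p = 0.0111). RCI2A was the only one of the 13 below the pooled tails. This small membrane protein of cold and salt responses had 2 Us on 0 of 2, 5 of 64 (7.81%) and 6 of 68 (8.82%) tails, and no tail with 3 Us was found (odds ratio 0.201, beta-binomial adjusted p = 4.19e-05). The other 7, among them ERD15, GRP7 and PSBW, had shares from 20% to 50% and did not pass the test. ERD15 (41.3% of 254 tails, beta-binomial adjusted p = 0.208) passed in an exact conditional test stratified by library (adjusted p = 0.0199), but not when poly(A) length was also a stratum (adjusted p = 0.232 in that exact test). The set was therefore not uniform, and CRD1 and AT1G24160 had most of its tails in replicates 2 and 3.

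Outside the set, 6 mRNAs were above the pooled tails. ATMS1, the cytosolic methionine synthase, had 2 or 3 Us on 24 of 34 tails (70.6%), 4 of 11 (36.4%) and 12 of 25 (48.0%) in replicates 1, 2 and 3 (odds ratio 2.67, beta-binomial adjusted p = 0.00683). LOS1, the translation elongation factor 2 that moves the ribosome along the mRNA, had them on 17 of 26 (65.4%), 9 of 21 (42.9%) and 15 of 33 tails (45.5%), with an odds ratio of 2.22 (beta-binomial adjusted p = 0.0229). Both were highest in replicate 1, and without it the adjusted p was 0.259 for ATMS1 and 0.175 for LOS1. HSC70-1, a cytosolic HSP70 chaperone, had them on 6 of 14 (42.9%), 5 of 8 (62.5%) and 8 of 11 tails (72.7%), with an odds ratio of 2.90 (beta-binomial adjusted p = 0.0323, but 0.0738 without replicate 2 and 0.290 without replicate 3).

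A pair of less studied mRNAs had higher shares still, mainly in replicate 1. AT1G07020, an uncharacterized protein (chr1:2155213-2156153), had 2 or 3 Us on 15 of 20, 3 of 4 and 3 of 6 tails in replicates 1, 2 and 3 (odds ratio 4.75, beta-binomial adjusted p = 0.00288). AT1G10640, a pectin lyase-like protein, had them on 22 of 36 (61.1%), 3 of 3 and 2 of 3 tails (odds ratio 4.01, beta-binomial adjusted p = 0.00350). The remaining one, AT1G07940, encodes an elongation factor 1-alpha of translation. It had them on 8 of 27 tails (29.6%) in replicate 1, below the pooled share there, and on 36 of 49 (73.5%) and 20 of 33 (60.6%) in replicates 2 and 3 (odds ratio 2.87, beta-binomial adjusted p = 7.85e-04). Without replicate 2 its adjusted p was 0.123, so the call rests on that library.

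On 9 of the 177 mRNAs tails with 2 Us outnumbered tails with 1 U. Besides AT1G24160 these were ATMS1, AT4G28240, AT1G10640, HSC70-1, AT1G07020, HAM1, AT1G06760 and HMGB2. The last pair had 12 tails with 2 Us, 10 with 1 U and none with 3 Us each, and neither passed the test (beta-binomial adjusted p = 0.139 and 0.146).

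**Figure D3:**
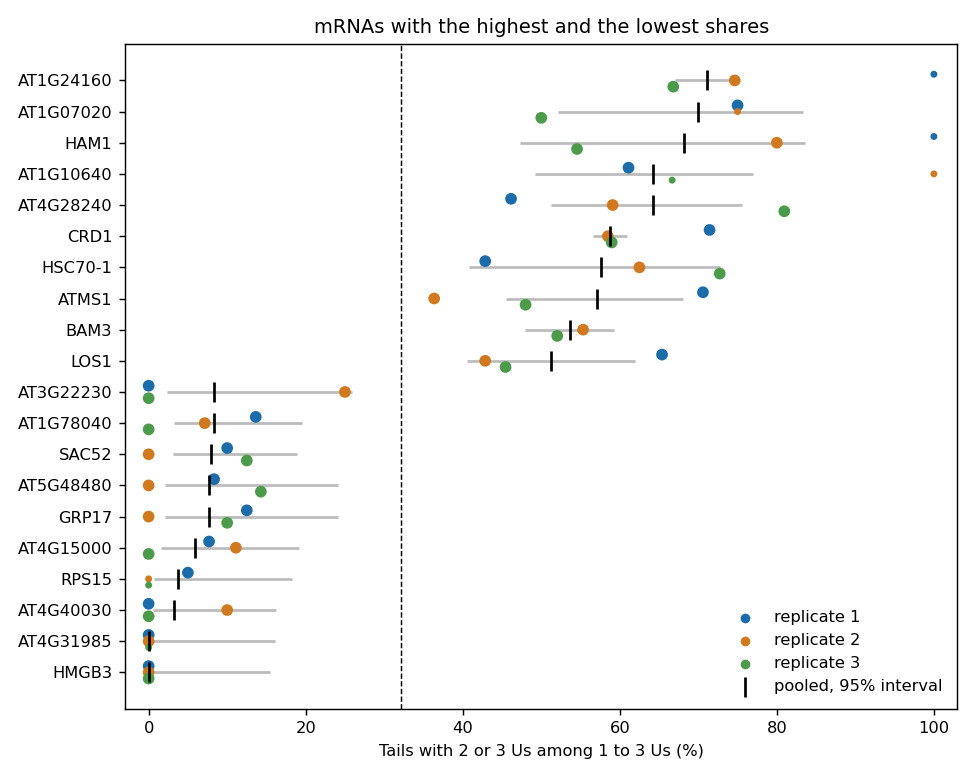
Share of tails with 2 or 3 Us (%, horizontal axis) on the 10 mRNAs with the highest and the 10 with the lowest fitted log odds among those that passed the test with the same direction in every library with at least 5 tails. Coloured points are libraries (small points have under 5 tails), black marks are pooled values with Wilson 95% intervals, and the dashed line is the pooled share of 32.1%. The lowest library value with at least 5 tails among the 10 of highest log odds was 36.4% (ATMS1, replicate 2), and the highest among the 10 of lowest log odds was 25% (AT3G22230, replicate 2).

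At the other end, several mRNAs ended almost only in a single U. HMGB3, a chromatin protein of the HMG box family, had no tail with 2 or 3 Us among 9, 7 and 5 tails in replicates 1, 2 and 3, and 0 of 21 allows a share of up to 14.3%. AT4G31985, ribosomal protein L39, had none among 8, 9 and 3 tails, and 0 of 20 allows up to 15%. The beta-binomial adjusted p was 0.00228 for HMGB3 and 0.00277 for AT4G31985, and no odds ratio is given for either. AT4G40030, a histone, had 2 Us on 0 of 13, 1 of 10 and 0 of 8 tails (odds ratio 0.0758, beta-binomial adjusted p = 0.00246). RPS15 had them on 1 of 20, 0 of 3 and 0 of 4 tails (odds ratio 0.0898, beta-binomial adjusted p = 0.00631).

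The other mRNAs below the pooled tails had shares from 5.88% to 16.9%. They included GRP17, an oleosin of the pollen coat, with 2 of 26 tails, and AT1G78040, a pollen Ole e 1 protein, with 4 of 48. They also included TCTP, a conserved growth regulator, with 4 of 50, the metallothionein MT2B with 2 of 25, MLP423 with 3 of 37, the glyoxalase AT5G48480 with 2 of 26, the cyclophilin ROC3 with 4 of 40, the photosystem II subunit PSBR with 4 of 42, and THI1, an enzyme of thiamin synthesis, with 20 of 118. Of these, AT1G78040 and ROC3 did not pass without replicate 3 (beta-binomial adjusted p = 0.0656 and 0.212). PSBR did not pass without replicate 1 or 2 (0.0617 and 0.0633), nor THI1 without replicate 2 or 3 (0.0565 and 0.0864).

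Cytosolic ribosomal proteins were the group with the most calls. They are the proteins of the translating ribosome, and 31 of their mRNAs had at least 20 tails. Of these, 7 were below the pooled tails and 0 above, beside 11.9% and 6.21% of all mRNAs tested. Their median share was 17.2%, beside 24.6% over all 177, and it ran from 0% to 43.5%. Besides AT4G31985 and RPS15 the 7 were AT4G15000 and AT3G22230 of the L27e family, SAC52 of the L10e family, AT1G18540 of the L6 family and AT3G53740 of the L36e family, with 2 of 34, 2 of 24, 4 of 50, 3 of 36 and 3 of 30 tails. AT4G15000 did not pass without replicate 3 (beta-binomial adjusted p = 0.0960), nor AT1G18540 without replicate 2 (0.0743). AT5G18380 and AT3G49910 were also below the pooled tails, with 6 of 45 and 3 of 34, and their annotated families hold ribosomal proteins although the words used for the list did not catch them. Others that the list did not catch were not called, such as AT1G09690, a translation protein SH3-like, and AT2G09990, a ribosomal protein S5 domain 2-like. They had 14 of 71 and 5 of 22 tails (beta-binomial adjusted p = 0.155 and 0.553). Of the tails of AT5G18380, 33.3% were also assigned to another gene. AT5G18380 lost its call without replicate 2 or 3 (beta-binomial adjusted p = 0.0738 and 0.212) and AT3G49910 without replicate 3 (0.0894).

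The low level was shared by ribosomal protein mRNAs that were too sparse to be tested singly. Of the group, 192 mRNAs had from 1 to 19 tails, and their pooled share was 16.5%, 18.5% and 20.3% in replicates 1, 2 and 3, against 33.1%, 32.7% and 33.8% for all such sparse mRNAs outside the 3′RACE-seq set. The difference was -14.7 ± 1.62 percentage points (SD, n = 3). Over all members of the group, ribosomal protein mRNAs had 30.8%, 16.6% and 11.1% with 2 or 3 Us at 10 to 13, 14 to 17 and 18 to 25 As, against 43.0%, 31.4% and 21.9% for mRNAs outside the 3′RACE-seq set.

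Ribosomal protein mRNAs are short, with a median length of 923 nt for the 31, and against other mRNAs of like length the difference was smaller. Among mRNAs of up to 1200 nt, 15.9%, 18% and 19% of ribosomal protein tails had 2 or 3 Us in replicates 1, 2 and 3, against 23.3%, 23% and 25% of the other tails. That difference was -6.13 ± 1.18 percentage points, whereas against all mRNAs outside the 3′RACE-seq set it was -13.8 ± 0.925 points (SD, n = 3 for both). Within the shortest class, up to 800 nt, the difference was -6.33, 2.01 and 0.451 points in replicates 1, 2 and 3, so its sign was not the same in all libraries. For mRNAs of over 800 and up to 1200 nt it was -7.85 ± 0.917 points. For those of over 1200 and up to 1600 nt it was -11.2 ± 3.65 points (SD, n = 3 for both). In both of these classes it was negative in every library. The comparison by length was added after the data were seen.

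Among groups of the translation machinery the calls differed in direction, but a difference between the groups was not tested. Of 5 mRNAs of translation elongation factors, 2 were above the pooled tails (AT1G07940 and LOS1) and 0 below, beside 6.21% and 11.9% of all mRNAs tested, with a median of 43.2%. As given above, neither call held when 1 library was left out (beta-binomial adjusted p = 0.123 for AT1G07940 without replicate 2 and 0.175 for LOS1 without replicate 1). The range within this group was wide, from 17.3% on AT5G60390 to 58.7% on AT1G07940. Members with under 20 tails had a mean of 29.4% ± 10.4 (SD, n = 3), so the high median rests on the abundant ones. Over all elongation factor mRNAs the share was 30.9%, 46.0% and 45.3% in replicates 1, 2 and 3. On the mRNAs outside the 3′RACE-seq set it was 32.2%, 31.2% and 32.8%. The 5 tested elongation factor mRNAs had a median length of 2263 nt, and they were not compared with mRNAs of like length. Heat shock proteins and chaperones had 2 mRNAs with at least 20 tails, HSC70-1 and SHD, at 57.6% and 50%. SHD was not called, with 1 of 5, 7 of 8 and 2 of 7 such tails in replicates 1, 2 and 3 (beta-binomial adjusted p = 0.315). Over all members of that group, 40.9%, 45.0% and 44.3% of tails had 2 or 3 Us in replicates 1, 2 and 3, which was 11.4 ± 2.52 percentage points above the mRNAs outside the 3′RACE-seq set (SD, n = 3). Members with under 20 tails were 7.47 ± 2.90 points above the sparse mRNAs. The 2 tested heat shock and chaperone mRNAs had a median length of 2792 nt. All mRNAs of over 2400 nt outside the 3′RACE-seq set had a mean share of 43.6%. Whether the group differs from mRNAs of like length was not tested.

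Among photosystem and light-harvesting proteins the tested mRNAs did not stand apart. Of 16 mRNAs, 1 (PSBR) was below the pooled tails and 0 above, beside 11.9% and 6.21% of all mRNAs tested, and their median of 24.7% was close to the 24.6% of all 177. Over all members the share was 24.8%, 22.7% and 27.3%, and the difference from the mRNAs outside the 3′RACE-seq set was -7.11 ± 1.48 points (SD, n = 3), and members with under 20 tails differed by -10.1 ± 7.16 points. Of 8 mRNAs of transcription factors, 1 was above (HAM1) and 0 below, beside 6.21% and 11.9% of all mRNAs tested, and their median was 36.5%. HAM1 belongs to the 3′RACE-seq set and had 21 of its 22 tails in replicates 2 and 3. Over all members of the transcription factor group the share was 38.5%, 37.7% and 37.2%, higher than on the other mRNAs by 5.75 ± 1.19 points. For members with under 20 tails, however, the difference was 0.450 points in replicate 3. The 8 tested transcription factor mRNAs had a median length of 2199.5 nt. Neither this group nor the photosystem group was compared with mRNAs of like length. Of 5 wound and jasmonate mRNAs, 1 was above (AT4G28240) and 0 below, beside 6.21% and 11.9% of all mRNAs tested. Their median was 40.7%. AT4G28240 belongs to the 3′RACE-seq set and did not pass without replicate 3 (beta-binomial adjusted p = 0.0960). LOX2, a lipoxygenase of jasmonate synthesis, had 47 of 107 tails with 2 or 3 Us (beta-binomial adjusted p = 0.199). Oleosins and lipases were represented by GRP17 and AT1G13930, with 1 below and 0 above, beside 11.9% and 6.21% of all mRNAs tested.

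**Figure D4:**
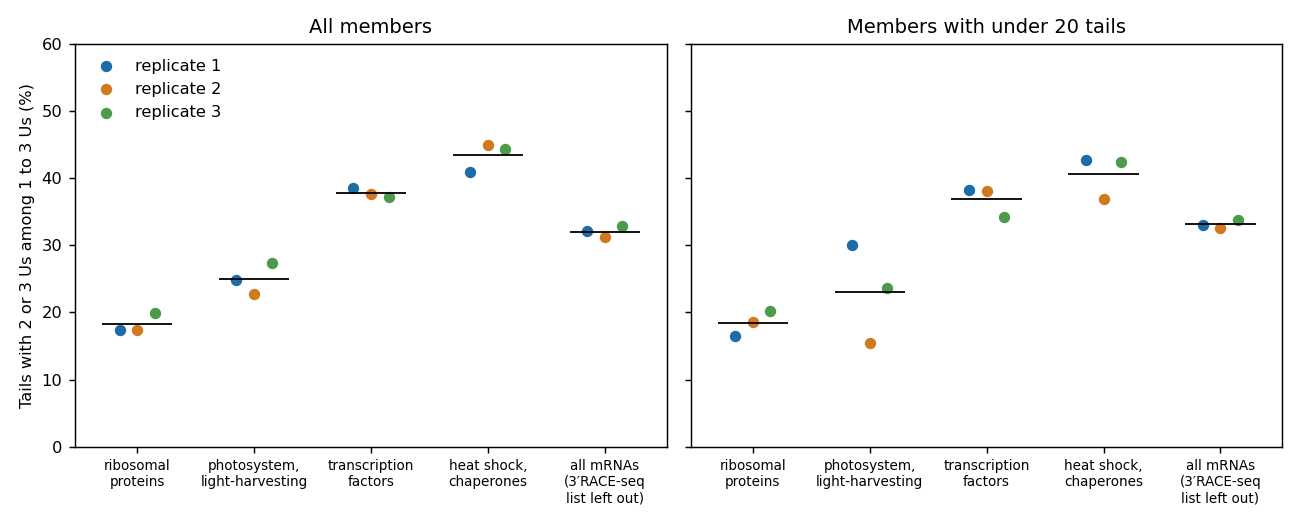
Share of tails with 2 or 3 Us (%, vertical axis) for 4 groups of mRNAs and for all mRNAs outside the 3′RACE-seq set, over all members (left) and over members with under 20 tails (right). Points are libraries and lines are means over the 3 libraries. Ribosomal protein mRNAs lay between 16.5% and 20.3% in every library of both panels, below all mRNAs.

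None of the 19 decay and tailing factors reached 20 tails, so the mRNAs of the enzymes themselves could not be tested. Together they had 2 or 3 Us on 19 of 53 tails, and 8 of the 17 members with any tail had none with 2 or 3 Us. The mRNA of URT1 (AT2G45620) had them on 2 of 5 tails, that of the other uridylyltransferase HESO1 on 2 of 2 and that of the decapping scaffold VCS on 5 of 7. The mRNA of the decapping enzyme DCP2 had them on 0 of 4, that of LSM1A on 0 of 4, that of the deadenylase CAF1b on 3 of 3 and that of its relative CAF1a on 0 of 6.

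Some closely related genes differed widely, and the pairs named here were chosen after their values were seen, so they are given with no test. HMGB2 had 2 Us on 7 of 9, 3 of 7 and 2 of 6 tails in replicates 1, 2 and 3, whereas its neighbour on chromosome 1, HMGB3, had none on 21. The histone mRNAs AT4G40030 and AT4G40040, which also lie side by side, had 1 of 31 and 17 of 80 tails with 2 or 3 Us. Among elongation factor 1-alpha genes, AT1G07940 had 64 of 109 (58.7%), AT1G07920 had 16 of 37 (43.2%) and AT5G60390 had 9 of 52 (17.3%). No tail was assigned to both members of a pair except for AT1G07940 and AT1G07920, which shared 6. LHCB2.2 and LHCB2.1, in contrast, shared 80 of their tails and cannot be told apart.

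Shares were higher on longer mRNAs. Across the 176 mRNAs with an annotated length, Spearman's correlation of the share with the length of the longest annotated mRNA was 0.43, and it was 0.40, 0.43 and 0.33 within replicates 1, 2 and 3 for mRNAs with at least 10 tails there. These points share libraries and are not independent, so no p is given. With the 3′ UTR alone the correlation was -0.06. The 11 mRNAs above the pooled tails had a median length of 2555 nt and the 21 below one of 1086 nt, beside 1228.5 nt for all tested. The 11 include 5 of the 3′RACE-seq set, whose reads may not all be TAIL-seq reads. Of those above, 8 were longer than 1600 nt, and of those below 4 were, beside 53 of the 176.

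The relation was seen in all mRNAs outside the 3′RACE-seq set when their tails were pooled by length class, with class limits chosen after the data were seen. The share was 22.8% ± 3.80 for mRNAs of up to 800 nt, 22.7% ± 0.863 for over 800 and up to 1200 nt, 29.7% ± 0.998 for over 1200 and up to 1600 nt, 34.6% ± 0.820 for over 1600 and up to 2400 nt and 43.6% ± 0.333 for longer ones (SD, n = 3 for each). The longest class was above the shortest by 25, 19.7 and 18.0 percentage points in replicates 1, 2 and 3. The median tail had 15 As in every class. Ribosomal protein mRNAs made up 21.9% of tails in the shortest class and 0% in the longest, and without them the shares in the order of length were 23%, 24.1%, 30.6%, 34.6% and 43.6%. AT1G07020, the mRNA with the second highest share, was an exception with 819 nt.

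**Figure D5:**
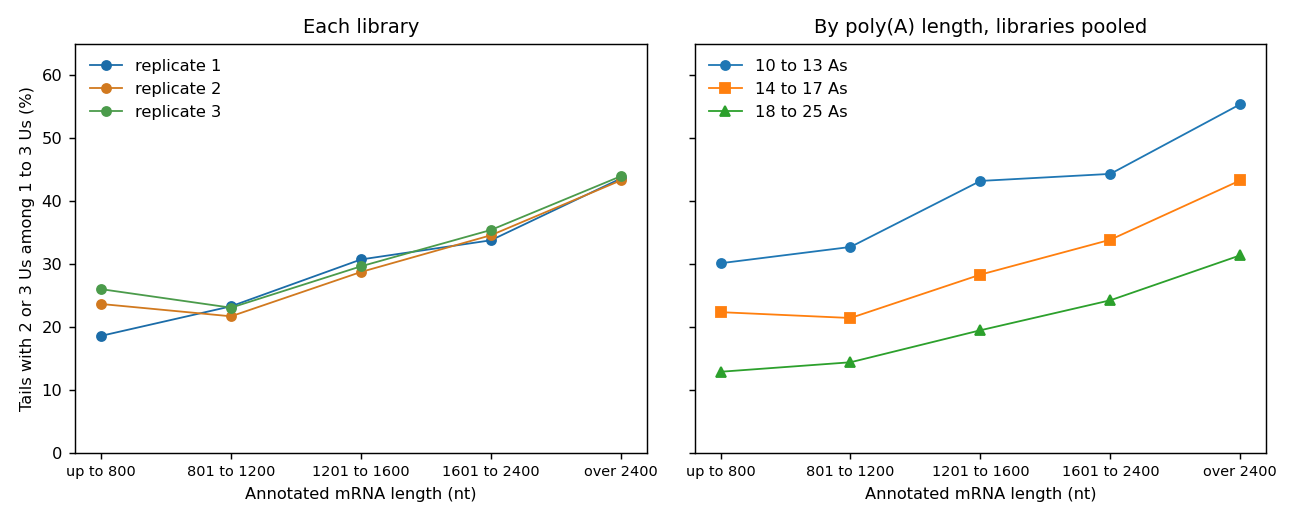
Share of tails with 2 or 3 Us (%, vertical axis) by class of annotated mRNA length (nt, horizontal axis), for each library (left) and for 3 classes of poly(A) length with libraries pooled (right). The 3′RACE-seq mRNAs and HAM1 are left out. Over the libraries the mean was 22.8% in the shortest and 43.6% in the longest class, and at each poly(A) length the longest class was the highest.

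Shares were also higher on mRNAs that were uridylated more often. Over the 177 mRNAs, Spearman's correlation between the share with 2 or 3 Us and the percentage of all reads that were uridylated was 0.66, and both values come from the same libraries. With the percentage taken from replicate 1 and the share from replicates 2 and 3 it was 0.55 over 158 mRNAs with at least 10 tails. Uridylation percentage and mRNA length also correlated with each other, at 0.41 over 176 mRNAs, and their relations to the share were not separated. Median uridylation was 14.4% on the 11 mRNAs above the pooled tails, 5 of them of the 3′RACE-seq set, and 4.15% on the 21 below. The relation was loose for single mRNAs. HAM1, at 68.2% of tails with 2 Us, had 3.68% of its reads uridylated, whereas HMGB3, with none of 21, had 8.20%. Between libraries the share itself correlated with 0.33 (replicates 1 and 2, 43 mRNAs), 0.57 (1 and 3, 59 mRNAs) and 0.65 (2 and 3, 50 mRNAs) over mRNAs with at least 10 tails in each.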

How the data were processed

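Per the labels and the methods of the study, ribodepleted flower RNA was ligated to a biotinylated 3′ adapter, digested with RNase T1 and sequenced on a MiSeq. The authors removed duplicates by the random tag at the start of read 2, mapped reads to TAIR10 (the submitters' processing notes name HISAT2 2.1.0 and bedtools 2.17.5) and measured tails in the read from the 3′ end. The deposited table gives, for each read and gene, other values than expression: the length of the poly(A) stretch in nucleotides, at least 6 here, and the added nucleotides, written as the complement of the RNA. Repeated lines of the same read and gene (172 of 455742) were dropped, and 0 columns were left unmapped.

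Depth is the number of reads per library, and n is the 3 libraries, which are biological replicates per the labels. Tails were converted to RNA letters. Slopes came from logistic regression, and poly(A) classes were compared by the Cochran-Mantel-Haenszel test. Each mRNA was compared with the pooled tails outside the 3′RACE-seq set by a beta-binomial model with library terms and Benjamini-Hochberg adjustment at 0.05. Its overdispersion, 0.01566, was 1 value for all mRNAs. An odds ratio is not given for an mRNA with 0 tails of 2 or 3 Us, whose limit is 3 counts of the total. Names, coordinates and mRNA lengths came from the RefSeq annotation of TAIR10.1, which matched 176 of the 177 mRNAs. Reads assigned to more than 1 gene were counted for each gene.

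Named mRNAs were the up to 10 with the highest and 10 with the lowest fitted log odds that passed with the same direction in every library with at least 5 tails, the 10 with the most tails, those of the 3′RACE-seq set with at least 20 tails, those at 19 and 20 tails as ranges, and the decay list. The other mRNAs that passed, those with more 2-U than 1-U tails, the related genes and the length classes were chosen after their values were seen. The members and gene lists were chosen with earlier results of these data known. The scripts were tested on simulated data and ran in Python 3.11.15 with numpy 2.4.6, pandas 2.3.3 and scipy 1.17.1. Alternatives varied the libraries, the number of Us, the poly(A) range, the minimum of tails, the comparison and the test.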

Additional observations from a re-analysis of the deposited data

How the results depend on the processing

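The mean share of tails with 2 or 3 Us was 32.0% without the 3′RACE-seq mRNAs and HAM1, 30.5% for 2 Us alone against 1 U, 38.7% at 11 to 16 As and 27.9% with each mRNA given equal weight, and 34.1% to 36.1% when a library was left out. The slope was -0.0463 per nt of total tail length, which includes the Us. Per A it was -0.138 within mRNAs, and -0.128 to -0.116 when a library was left out. The class differences stayed between -21.4 and -18.5 points and between 27.4 and 29.4 points when a library was left out. The number of mRNAs above the pooled tails was 7 to 8 when a library was left out, 22 of 546 at a minimum of 10 tails and 7 of 32 at a minimum of 50. The number below was 8 to 14 when a library was left out, 4 at a minimum of 50 tails and 34 when all other mRNAs were the comparison. With fewer libraries fewer mRNAs reach 20 tails. Of the 32 mRNAs called, 20, 24 and 23 still did without replicate 1, 2 and 3, and 17, 18 and 15 of these kept their call. The exact conditional test by library gained ERD15, and exact tests lost AT3G22230 and AT3G53740, and with poly(A) length as a stratum also MT2B, which was also lost with 2 or more Us. With all other mRNAs as the comparison CBSX3 was gained. The difference for ribosomal proteins was -6.13 points against other mRNAs of up to 1200 nt. The correlation was 0.55 for uridylation with libraries split, and 0.33 for mRNA length in replicate 3 alone. Among mRNAs that did not pass, the natural log odds changed sign for AT1G19000 (-0.0297) and GRP7 (-0.161) with all other mRNAs as the comparison, for GRP7 (-0.0119) and PSBQ-2 (0.0879) with single poly(A) lengths as strata, and for PSBQ-2 (0.0793) with poly(A) classes. They also did when a library was left out for LHB1B2 (-0.260 to 0.0334) and AT5G61590 (-0.0710 to 0.635). The cause of these changes was not tested. The single-length strata, the exclusion of mRNAs with an annotated run of 10 or more As, the ribosomal comparison by length, and the length relation per library, without ribosomal proteins and at 10 tails were added after the data were seen. Most mRNAs had under 30 tails (median 29), which limits the differences that single mRNAs can show.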
